A study of Homo sapiens with 9 samples.

Results

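The unfolded protein response and the response to amino acid shortage were followed through 10 genes across 9 arrays of HL-60 clone 15. This is a subline of a human promyelocytic leukaemia line that is used to model eosinophil precursors. The genes were chosen by name, with earlier results of these data known. Of the 10, 9 had a probe set named for them among 14778 named genes, and each had 1. They were MANF, SDF2L1, CRELD2, XBP1, ATF4, DDIT3, TRIB3, ASNS and ASS1. HSPA5, which encodes the chaperone BiP, had no named probe set and is not analysed here. All cells had been transduced with a lentiviral construct that 4-hydroxytamoxifen (4-OHT) switches on. The 3 groups, of 3 arrays each, were RhoH cells with 100 nM 4-OHT (RhoH + 4-OHT), RhoH cells that did not receive it (RhoH no 4-OHT) and GFP cells with 100 nM 4-OHT (GFP + 4-OHT). GFP is a fluorescent protein that serves as a control. The series asks which genes RhoH changes, and the 3 samples of a group are called biological replicates. GFP cells without 4-OHT were not analysed here, so the drug, the construct and differences between the transduced populations cannot be told apart. The duration of treatment and the number of transductions are not given in the sources used here.

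Proteins that misfold in the endoplasmic reticulum (ER) activate the sensors IRE1, PERK and ATF6. IRE1 splices the XBP1 messenger into the form that encodes an active transcription factor, and XBP1 and ATF6 then raise genes for ER chaperones and for degradation of misfolded proteins. PERK, and the kinase GCN2 when amino acids run short, phosphorylate the initiation factor eIF2, which favours translation of ATF4. ATF4 in turn raises genes of amino acid synthesis and transport, together with DDIT3 (CHOP) and TRIB3. Much of the control of XBP1 and ATF4 lies in splicing and translation, which a gene-level array signal does not measure. Granulocyte precursors make and pack large amounts of granule protein through the ER.

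The start-site sequences of 4 of the genes are shown because they hold an exact match to an element that ATF6, XBP1 or ATF4 is known to bind. RefSeq windows (assembly GRCh38.p14, 250 bases before to 50 after a start site) were found for 9 of the 9 measured genes, 16 windows in all. On both strands 4 motifs were searched, the ER stress elements ERSE (CCAAT and CCACG with 9 bases of any kind between them) and ERSE-II (ATTGG and CCACG with 1 base between them), the unfolded protein response element UPRE (TGACGTGG) and the C/EBP-ATF element CARE (TGATGNAA). ERSE and ERSE-II both hold a CCAAT box and CCACG at different spacings, so 1 site cannot match both in full. Capitals mark the match, and each sequence runs 5′ to 3′ on the strand of the gene.
CRELD2, chr22:49918384-49918683 (plus strand): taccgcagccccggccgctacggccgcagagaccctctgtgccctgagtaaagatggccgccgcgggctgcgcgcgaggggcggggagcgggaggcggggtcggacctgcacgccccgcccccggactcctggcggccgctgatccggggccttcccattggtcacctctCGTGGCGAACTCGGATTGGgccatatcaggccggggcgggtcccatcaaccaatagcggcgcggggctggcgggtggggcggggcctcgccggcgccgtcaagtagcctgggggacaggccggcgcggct
SDF2L1, chr22:21642052-21642351 (plus strand): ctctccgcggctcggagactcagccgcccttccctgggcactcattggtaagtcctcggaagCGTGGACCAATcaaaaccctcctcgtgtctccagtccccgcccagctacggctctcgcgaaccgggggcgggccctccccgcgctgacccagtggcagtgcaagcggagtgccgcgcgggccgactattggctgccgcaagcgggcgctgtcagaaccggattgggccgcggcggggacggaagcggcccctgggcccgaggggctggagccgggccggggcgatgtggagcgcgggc
XBP1, chr22:28800520-28800819 (minus strand): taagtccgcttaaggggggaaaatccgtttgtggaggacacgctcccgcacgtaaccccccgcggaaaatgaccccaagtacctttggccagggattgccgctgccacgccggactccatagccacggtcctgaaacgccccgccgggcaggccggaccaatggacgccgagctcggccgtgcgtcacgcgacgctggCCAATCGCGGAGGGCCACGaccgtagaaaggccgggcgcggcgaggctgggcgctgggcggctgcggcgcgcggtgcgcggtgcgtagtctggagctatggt
ASNS, chr7:97872359-97872658 (minus strand): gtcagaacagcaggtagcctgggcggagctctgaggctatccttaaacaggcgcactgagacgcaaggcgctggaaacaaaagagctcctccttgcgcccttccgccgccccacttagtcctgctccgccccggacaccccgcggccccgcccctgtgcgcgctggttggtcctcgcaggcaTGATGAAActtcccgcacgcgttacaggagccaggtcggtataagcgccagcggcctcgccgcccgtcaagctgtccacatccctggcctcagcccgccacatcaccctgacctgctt
ERSE was found in CRELD2, on the reverse strand, and in XBP1, and in 0.0769% of all 35116 windows. ERSE-II was found in SDF2L1, on the reverse strand, and in 0.0541% of all windows. CARE was found in ASNS and in 3.62% of all windows, and UPRE in none of the 9 genes and in 0.729% of all windows. The shares are of windows and not of genes, and some of the 9 genes had several windows. A match is a description of letters. No factor binding was measured here.

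**Figure D1:**
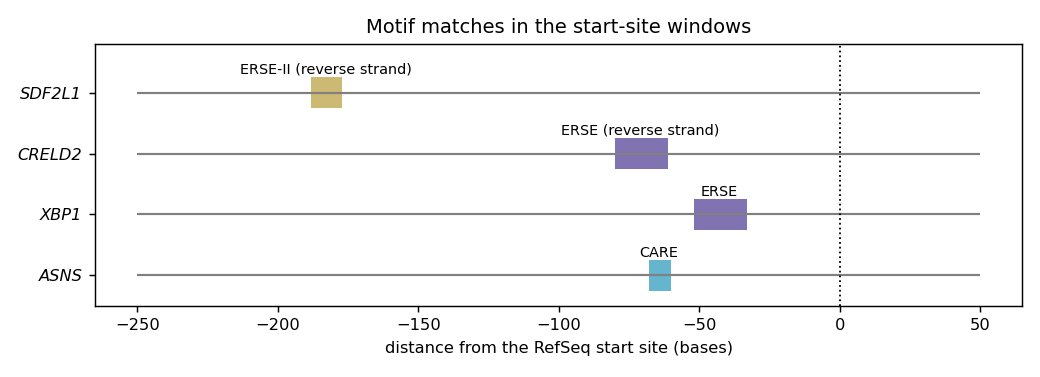
Positions of the motif matches in the windows of SDF2L1, CRELD2, XBP1 and ASNS, as distance in bases from the RefSeq start site (dotted line); grey lines are the windows and coloured boxes the matches. The matches start 188, 80, 52 and 68 bases before the start site in that order, so all 4 lie upstream of it.

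Values are the log2 signals that the authors deposited after RMA, a background correction, quantile normalization and summary per probe set, and group names are those on the labels. The gene carried by the construct, RHOH, had log2 signals of 5.60, 5.73 and 5.45 in RhoH + 4-OHT, 5.23, 5.25 and 5.15 in RhoH no 4-OHT and 5.90, 5.94 and 5.94 in GFP + 4-OHT. The arrays labelled GFP thus had the highest RHOH signal, and every direction given here is that of the arrays as labelled. RHOH lay near the array medians given below. It was at 0.38 with 4-OHT in RhoH cells (limma adjusted p = 0.0451, lost in 12 of 18 alternatives). Against GFP + 4-OHT it was at -0.33 in RhoH + 4-OHT (adjusted p = 0.0717) and -0.72 in RhoH no 4-OHT (adjusted p = 0.000420). How much of the construct's transcript its probe set reads was not tested. Array medians over all probe sets were 5.43 to 5.55, with the replicate 1 arrays of both RhoH groups at 5.55. These replicate 1 arrays and RhoH + 4-OHT replicate 3 deviated most from their group means (SD over genes 0.200 to 0.206, against 0.0904 to 0.162 on the other 6), and results that rest on the replicate 1 arrays are given without them as well. Of the markers of granulocyte precursors, 4 of 5 were measured, with a summed log2 signal of 14.11 to 14.44 in RhoH + 4-OHT, 14.54 to 14.57 in RhoH no 4-OHT and 13.00 to 13.07 in GFP + 4-OHT. For eosinophil granule markers, 3 of 5, the sums were 9.61 to 10.38, 10.02 to 10.72 and 8.16 to 8.20 in the same order of groups. Both lists were thus higher in both RhoH groups than in GFP cells. The granulocyte precursor sum was also lower in all RhoH + 4-OHT than in all RhoH no 4-OHT arrays, and of its genes CTSG was called lower there (-0.83, limma adjusted p = 0.00703). Monocyte markers (4 of 5 measured) summed to 12.57 to 12.60 in RhoH + 4-OHT, 12.62 to 12.73 in RhoH no 4-OHT and 12.44 to 12.56 in GFP + 4-OHT. These sums mostly follow LYZ, which alone averaged 12.54, 12.65 and 12.43 in the same order and was not called in any comparison. CD14, at 5.51, 5.39 and 6.86, was called lower in RhoH + 4-OHT (-1.35, limma adjusted p = 0.00726) and in RhoH no 4-OHT (-1.47, adjusted p = 0.00126) than in GFP + 4-OHT. The 1 measured erythroid marker, KLF1, was at 0.53 in both RhoH groups against GFP + 4-OHT (limma adjusted p = 0.101 with 4-OHT and 0.0460 without, so called in the second). Some markers thus differed between the groups in each of the 3 comparisons, and their part in the results was not tested. In total RNA, fewer cells of a type and less RNA per cell cannot be told apart. Fibroblast markers (2 of 5 measured) summed to 4.72 to 4.93 on all arrays. None of 5 lymphoid markers had a named probe set.

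In RhoH cells, 4-OHT went with lower ASS1, ASNS, MANF and SDF2L1 and with higher CRELD2. Of the 9 genes, 1 was called higher and 4 lower in RhoH + 4-OHT than in RhoH no 4-OHT (limma, Benjamini-Hochberg adjusted p under 0.05 over all 14778 genes). Over all genes 3.78% were called, 3.02% higher and 0.751% lower. The 9 genes, and the lists below, were chosen with earlier results of these data known. Shares over all genes are thus given beside them as a description and not as a test. The median log2 fold change was -0.05 over the 9 genes and -0.00 over all genes. Against GFP + 4-OHT, RhoH + 4-OHT had 4 of the 9 called higher (ASS1, ASNS, MANF and XBP1) and 1 lower (CRELD2), where 4.49% of all genes were called, 1.74% higher and 2.75% lower. For RhoH no 4-OHT against GFP + 4-OHT the counts were 5 higher (SDF2L1 in addition) and 1 lower, where 15.3% of all genes were called, 6.01% higher and 9.27% lower. All arrays of one group lay beyond those of the other for 5, 7 and 8 of the 9 genes in the 3 comparisons in that order, and for 14.5%, 22.5% and 37.3% of all genes. The comparisons share arrays, so their counts are not independent of each other. Without the replicate 1 arrays of both RhoH groups the called genes numbered 3, 6 and 6, and over all genes 557, 990 and 2590, against 558, 664 and 2258 with them.

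**Figure D2:**
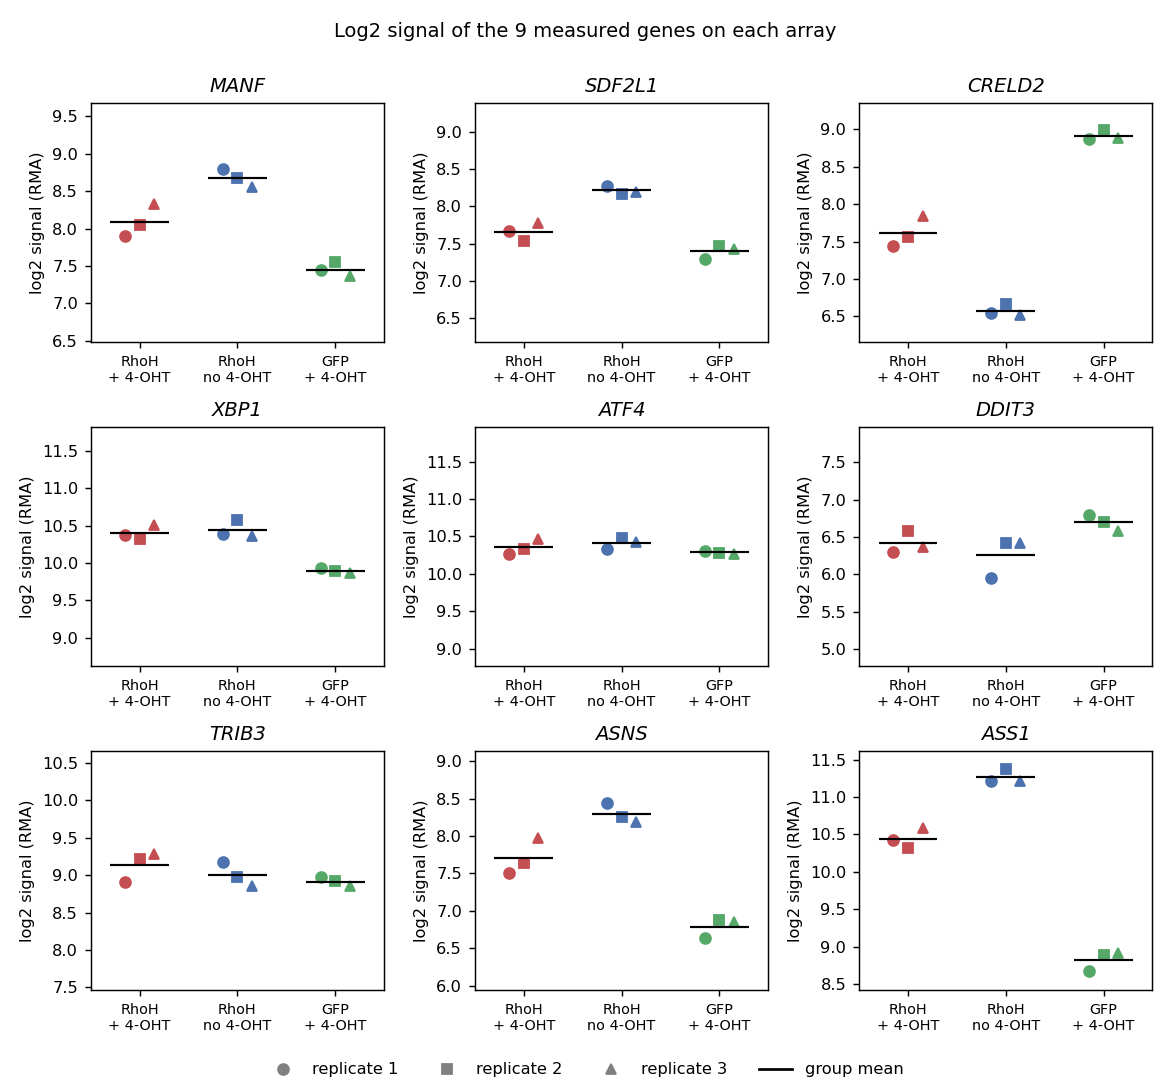
Log2 signal (RMA) of the 9 genes, 1 panel a gene, on the 3 arrays each of RhoH + 4-OHT (red), RhoH no 4-OHT (blue) and GFP + 4-OHT (green); symbols are replicates, black lines group means, and each axis spans the same log2 range. CRELD2 runs opposite to MANF, SDF2L1, ASNS and ASS1, and ATF4 stays within 10.26 to 10.47 on all arrays.

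Among the ER proteins, MANF is a small luminal and secreted protein that works with BiP. It had log2 signals of 7.91, 8.05 and 8.33 in RhoH + 4-OHT, 8.80, 8.68 and 8.55 in RhoH no 4-OHT and 7.44, 7.55 and 7.36 in GFP + 4-OHT. No groups overlapped, with GFP + 4-OHT lowest and RhoH no 4-OHT highest. MANF fell by 0.58 on the log2 scale in RhoH + 4-OHT relative to RhoH no 4-OHT (SE 0.12, limma adjusted p = 0.0256). It was 1.56-fold higher in RhoH + 4-OHT than in GFP + 4-OHT (adjusted p = 0.0150) and 2.34-fold higher in RhoH no 4-OHT than in GFP + 4-OHT (adjusted p = 8.63e-05). The first call was lost in 12 of 19 alternatives (adjusted p up to 0.118). It was lost when any 1 array other than RhoH + 4-OHT replicate 3 was left out (adjusted p = 0.0503 to 0.0776) and without both replicate 1 arrays (-0.43, adjusted p = 0.112). Median-centred arrays, a test of all probe sets and a fit of only the 6 arrays compared lost it too. The second call was lost without GFP + 4-OHT replicate 1 or 3 (adjusted p up to 0.0784).

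SDF2L1 sits in the ER in a complex with DnaJ co-chaperones of BiP. Its log2 signals were 7.66, 7.54 and 7.78 in RhoH + 4-OHT, 8.27, 8.17 and 8.19 in RhoH no 4-OHT and 7.30, 7.47 and 7.43 in GFP + 4-OHT. The RhoH no 4-OHT arrays stood above the other 6, and the lowest RhoH + 4-OHT array lay just above the highest GFP + 4-OHT array. The fold change with 4-OHT in RhoH cells was -0.55 (SE 0.09, limma adjusted p = 0.00862), and it no longer passed in a fit of these 6 arrays alone (adjusted p = 0.0553). Against GFP + 4-OHT, SDF2L1 was at 0.26 in RhoH + 4-OHT (SE 0.09, adjusted p = 0.173) and was 1.76-fold higher in RhoH no 4-OHT (adjusted p = 0.000208). The difference between RhoH + 4-OHT and GFP + 4-OHT thus did not pass after adjustment over all genes, while its own 95% interval, before adjustment, was 0.06 to 0.47.

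CRELD2, another luminal and secreted ER protein that ER stress is known to raise, moved the other way. It had log2 signals of 7.44, 7.56 and 7.84 in RhoH + 4-OHT, 6.54, 6.67 and 6.51 in RhoH no 4-OHT and 8.87, 9.0 and 8.88 in GFP + 4-OHT. The groups were fully separate, with GFP + 4-OHT highest. With 4-OHT, RhoH cells had 2.06-fold more CRELD2 signal, a log2 change of 1.04 with an SE of 0.11 (limma adjusted p = 0.000653). Relative to GFP + 4-OHT it was 2.46-fold lower in RhoH + 4-OHT (adjusted p = 0.000173) and 5.07-fold lower in RhoH no 4-OHT (adjusted p = 1.08e-06). All 3 calls held in each of the 19 alternatives run. CRELD2 and XBP1 each have an ERSE match in the windows shown above. With 4-OHT in RhoH cells CRELD2 rose while XBP1 was at -0.04. A link between the match and these signals was not tested.

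Of the transcription factors, XBP1 drives chaperone and degradation genes once its messenger is spliced. Its log2 signals were 10.38, 10.32 and 10.51 in RhoH + 4-OHT, 10.39, 10.58 and 10.36 in RhoH no 4-OHT and 9.93, 9.90 and 9.86 in GFP + 4-OHT. All 6 RhoH arrays lay above all 3 GFP arrays, while the RhoH groups overlapped. Between the RhoH groups the log2 difference was -0.04, with a 95% interval of -0.25 to 0.17 (limma adjusted p = 0.925). XBP1 was 1.42-fold higher in RhoH + 4-OHT than in GFP + 4-OHT (adjusted p = 0.0136) and 1.46-fold higher in RhoH no 4-OHT than in GFP + 4-OHT (adjusted p = 0.00276). Omitting each GFP array in turn took the first of these past the threshold (adjusted p up to 0.0739). Spliced and unspliced XBP1 were not resolved by this probe set value.

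ATF4, the factor that amino acid shortage and PERK bring into play, varied least. It had log2 signals of 10.26, 10.33 and 10.47 in RhoH + 4-OHT, 10.33, 10.47 and 10.42 in RhoH no 4-OHT and 10.31, 10.28 and 10.27 in GFP + 4-OHT. Its whole range over the 9 arrays was 0.21 on the log2 scale, and RhoH + 4-OHT overlapped with both other groups. None of the 3 differences passed (limma adjusted p = 0.885, 0.757 and 0.429), with 95% intervals of -0.24 to 0.14 for RhoH + 4-OHT minus RhoH no 4-OHT, -0.13 to 0.26 for RhoH + 4-OHT minus GFP + 4-OHT and -0.07 to 0.31 for RhoH no 4-OHT minus GFP + 4-OHT.

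DDIT3 encodes CHOP, a factor tied to cell death in lasting ER stress. Its log2 signals were 6.31, 6.57 and 6.37 in RhoH + 4-OHT, 5.95, 6.42 and 6.42 in RhoH no 4-OHT and 6.80, 6.70 and 6.58 in GFP + 4-OHT. The GFP arrays were highest, by a narrow margin over RhoH + 4-OHT replicate 2, and RhoH no 4-OHT replicate 1 was lowest. No difference passed (limma adjusted p = 0.734 with 4-OHT in RhoH cells, 0.368 for RhoH + 4-OHT and 0.0645 for RhoH no 4-OHT against GFP + 4-OHT). The last, a log2 difference of -0.44, passed with array weights (-0.29, adjusted p = 0.0270) and with the dimmer genes left out (adjusted p = 0.0353).

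TRIB3 is a pseudokinase that ATF4 and CHOP induce and that restrains them. It had log2 signals of 8.91, 9.22 and 9.28 in RhoH + 4-OHT, 9.17, 8.97 and 8.86 in RhoH no 4-OHT and 8.97, 8.92 and 8.85 in GFP + 4-OHT. The 3 groups overlapped pairwise. Its log2 differences were 0.14 with 4-OHT in RhoH cells, 0.22 for RhoH + 4-OHT and 0.09 for RhoH no 4-OHT against GFP + 4-OHT (limma adjusted p = 0.726, 0.40 and 0.685). RhoH + 4-OHT minus GFP + 4-OHT passed without both replicate 1 arrays (0.34, adjusted p = 0.0446).

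The enzymes of amino acid supply had the widest differences beside CRELD2. ASNS makes asparagine from aspartate and glutamine and is a standard target of ATF4. Its log2 signals were 7.51, 7.64 and 7.97 in RhoH + 4-OHT, 8.45, 8.25 and 8.19 in RhoH no 4-OHT and 6.64, 6.87 and 6.85 in GFP + 4-OHT. The groups did not overlap, and GFP + 4-OHT was lowest. ASNS was 1.90-fold higher in RhoH + 4-OHT than in GFP + 4-OHT (log2 fold change 0.92, SE 0.13, limma adjusted p = 0.00373) and 2.85-fold higher in RhoH no 4-OHT than in GFP + 4-OHT (adjusted p = 4.07e-05), and both calls held in each alternative. With 4-OHT in RhoH cells it fell by 0.59 on the log2 scale (adjusted p = 0.0384). That call was lost in 12 of 19 alternatives. It was lost when any 1 array other than RhoH + 4-OHT replicate 3 was left out (adjusted p = 0.0598 to 0.107) and without both replicate 1 arrays (-0.41, adjusted p = 0.168). Median-centred arrays, a test of all probe sets and a fit of only the 6 arrays compared lost it too.

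ASS1, argininosuccinate synthase, joins citrulline and aspartate in the route to arginine. It had log2 signals of 10.42, 10.32 and 10.59 in RhoH + 4-OHT, 11.22, 11.37 and 11.21 in RhoH no 4-OHT and 8.67, 8.88 and 8.92 in GFP + 4-OHT. The gaps between groups were wider than the spread within any of them. ASS1 fell by 0.82 on the log2 scale with 4-OHT in RhoH cells (SE 0.11, limma adjusted p = 0.00220). It was 3.07-fold higher in RhoH + 4-OHT than in GFP + 4-OHT (adjusted p = 4.74e-05) and 5.44-fold higher in RhoH no 4-OHT than in GFP + 4-OHT (adjusted p = 5.67e-07). All 3 calls held in each of the 19 alternatives. ASL, which acts next after ASS1, was at -0.11, 0.00 and 0.12 on the log2 scale in the 3 comparisons, and none passed (adjusted p = 0.837, 0.992 and 0.638).

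**Figure D3:**
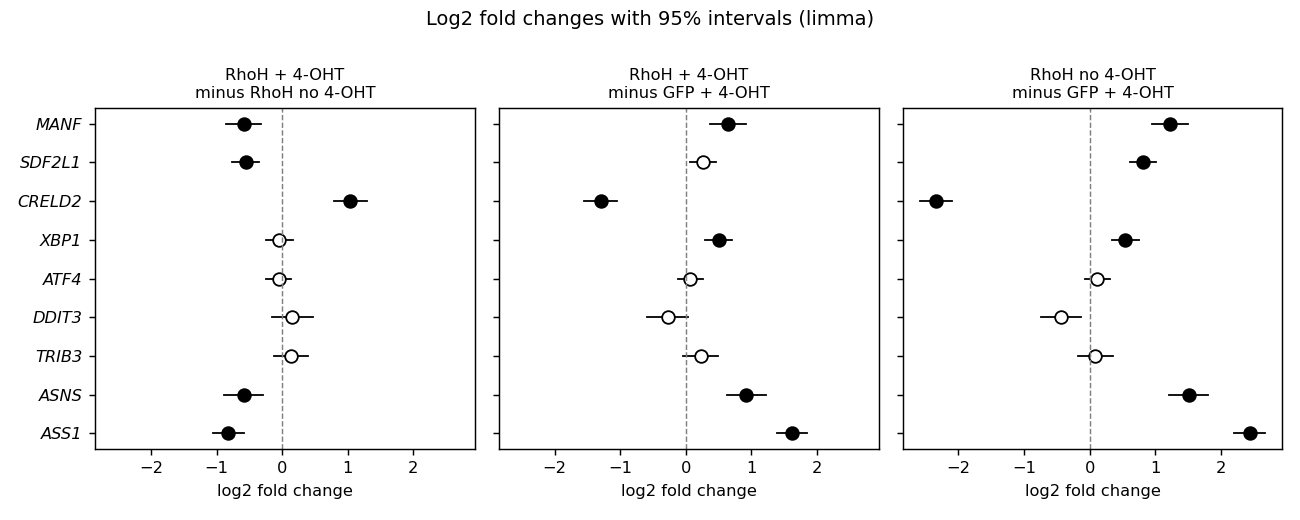
Log2 fold change of each gene in RhoH + 4-OHT minus RhoH no 4-OHT (left), RhoH + 4-OHT minus GFP + 4-OHT (middle) and RhoH no 4-OHT minus GFP + 4-OHT (right), with bars for the 95% interval of the limma fit before adjustment; filled points passed an adjusted p of 0.05. CRELD2 is at 1.04, -1.30 and -2.34 and ASS1 at -0.82, 1.62 and 2.44, while ATF4 and TRIB3 are open points in all 3 panels.

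The mean of RhoH + 4-OHT lay between the means of the other 2 groups for 8 of the 9 genes, all but TRIB3. Over all 14778 genes this was so for 50.1%, and among the 54 other measured genes of these pathways, given below, for 35 (64.8%). For CRELD2, ASNS, ASS1, MANF and SDF2L1, no array of a group lay within the range of another group. How often this was so over all genes was not computed, so it only describes these genes. The order was GFP + 4-OHT, RhoH + 4-OHT and RhoH no 4-OHT from low to high for ASNS, ASS1, MANF, SDF2L1, XBP1 and ATF4, and the reverse for CRELD2 and DDIT3. Within RhoH + 4-OHT, replicate 3 had the highest signal for 8 of the 9 genes, all but DDIT3. The share over all genes was not computed. This array was also among those that deviated most from their group means over all genes (SD 0.204).

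Other genes of these pathways were read from 6 lists of 99 genes, of which 54 had a named probe set. In RhoH + 4-OHT against RhoH no 4-OHT, 2 of the 54 were called higher and 3 lower by limma (4 and 12 before adjustment, p under 0.05). The median log2 fold change of the 54 was -0.09 there, against -0.00 over all genes. For RhoH + 4-OHT against GFP + 4-OHT 6 were higher and 0 lower (limma; 17 and 2 before adjustment, p under 0.05), with a median of 0.13 against 0.03 over all genes. In RhoH no 4-OHT against GFP + 4-OHT 15 were higher and 3 lower, with a median of 0.14 against 0.05. Without both replicate 1 arrays the calls numbered 3, 11 and 21, where all genes had 557, 990 and 2590 calls. The percentages of all genes given above for adjusted calls apply here too. Before adjustment, at p under 0.05, 8.58% of all genes were higher and 5.89% lower in RhoH + 4-OHT than in RhoH no 4-OHT, and 7.83% higher and 8.54% lower in RhoH + 4-OHT than in GFP + 4-OHT.

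**Figure D4:**
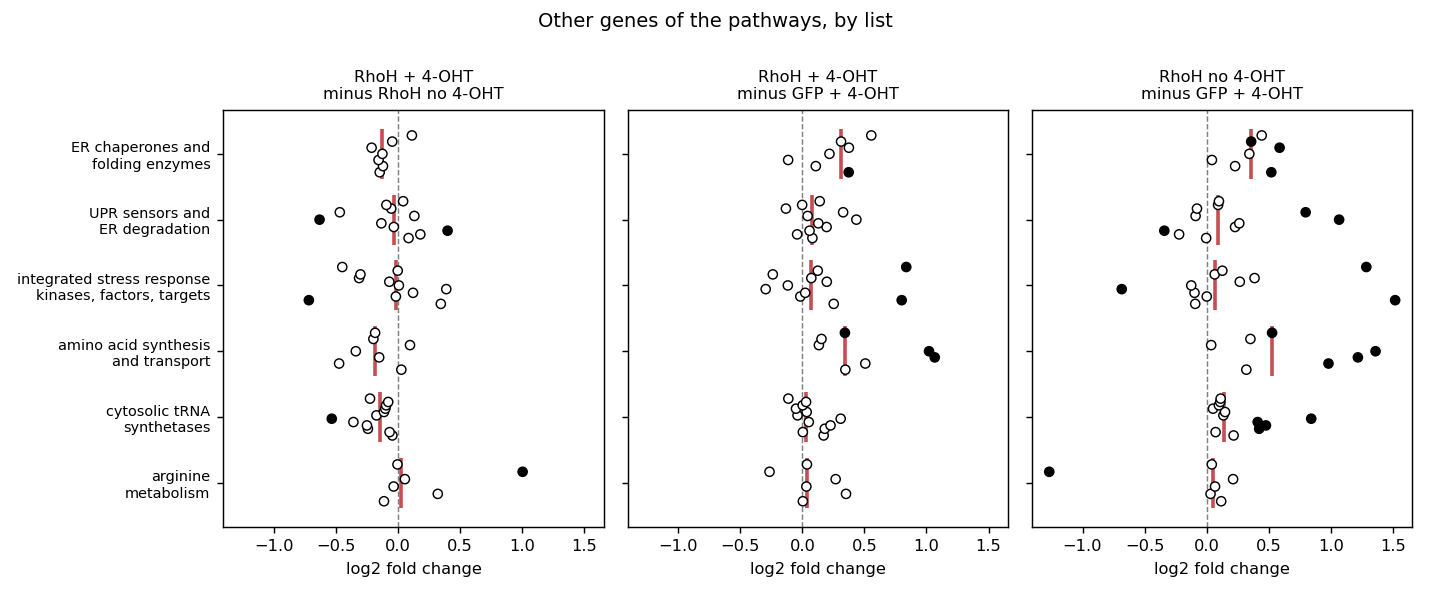
Log2 fold changes of the 54 other pathway genes by list (rows) in RhoH + 4-OHT minus RhoH no 4-OHT (left), RhoH + 4-OHT minus GFP + 4-OHT (middle) and RhoH no 4-OHT minus GFP + 4-OHT (right); each point is a gene, filled where it passed an adjusted p of 0.05, and red lines are list medians. The highest median, 0.53, is that of amino acid synthesis and transport in the right panel, and ODC1 of the arginine list lies at 1.00 on the left and -1.27 on the right.

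ER chaperones and folding enzymes (7 of 19 measured) had 0 called genes with 4-OHT in RhoH cells by limma (0 before adjustment too), 1 higher in RhoH + 4-OHT than in GFP + 4-OHT and 3 higher in RhoH no 4-OHT than in GFP + 4-OHT. The calcium-binding chaperone CALR averaged 13.27 ± 0.04 in RhoH + 4-OHT, 13.42 ± 0.04 in RhoH no 4-OHT and 12.90 ± 0.12 in GFP + 4-OHT on the log2 scale (SD, n = 3 each). It was 1.30-fold higher in RhoH + 4-OHT than in GFP + 4-OHT (limma adjusted p = 0.0390, lost in 12 of 19 alternatives, up to 0.165) and 1.43-fold higher in RhoH no 4-OHT than in GFP + 4-OHT (adjusted p = 0.00235). PPIB, a prolyl isomerase of the ER, was 1.28-fold higher in RhoH no 4-OHT than in GFP + 4-OHT (adjusted p = 0.0278), a call that 10 of 19 alternatives lost (adjusted p up to 0.101). HYOU1, a large relative of the Hsp70 chaperones, was at 0.59 there (adjusted p = 0.0185), but its other named probe set was at -0.17, and the mean of both was at 0.21 (adjusted p = 0.402).

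Of the sensors and ER-associated degradation genes (11 of 20 measured), the list had 1 higher and 1 lower with 4-OHT in RhoH cells, 0 in RhoH + 4-OHT against GFP + 4-OHT by limma (before adjustment, at p under 0.05, 2 higher and 0 lower) and 2 higher and 1 lower in RhoH no 4-OHT against GFP + 4-OHT. DERL3, a derlin of the degradation channel, fell by 0.63 on the log2 scale with 4-OHT in RhoH cells (limma adjusted p = 0.0109, 0.0666 without both replicate 1 arrays and 0.0542 without RhoH no 4-OHT replicate 3) and was 2.09-fold higher in RhoH no 4-OHT than in GFP + 4-OHT (adjusted p = 0.000113). ERN1, which encodes the sensor IRE1, was 1.74-fold higher in RhoH no 4-OHT than in GFP + 4-OHT (adjusted p = 0.00658) and at -0.47 with 4-OHT in RhoH cells (adjusted p = 0.171, 0.0379 without both replicate 1 arrays). The other sensors did not pass in any comparison, with log2 fold changes of -0.09 to 0.13 for EIF2AK3 (PERK) and -0.00 to 0.09 for ATF6. CREB3L2, a relative of ATF6, was at 0.40 with 4-OHT in RhoH cells (adjusted p = 0.0374, lost in 12 of 19 alternatives, up to 0.164) and at -0.34 in RhoH no 4-OHT against GFP + 4-OHT (adjusted p = 0.0277, lost in 7 of 19 alternatives, up to 0.105).

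Integrated stress response genes (11 of 19 measured) had 0 higher and 1 lower with 4-OHT in RhoH cells, 2 higher and 0 lower in RhoH + 4-OHT against GFP + 4-OHT, and 2 higher and 1 lower in RhoH no 4-OHT against GFP + 4-OHT. ATF5, a bZIP factor translated when eIF2 is phosphorylated, had log2 signals of 9.20, 9.30 and 9.46 in RhoH + 4-OHT, 10.27, 10.18 and 9.66 in RhoH no 4-OHT and 8.44, 8.57 and 8.54 in GFP + 4-OHT. The groups were separate, though RhoH no 4-OHT replicate 3 lay closer to RhoH + 4-OHT than the other arrays of its group. ATF5 fell by 0.72 on the log2 scale with 4-OHT in RhoH cells (limma adjusted p = 0.0281, lost in 11 of 19 alternatives, up to 0.147) and was 1.74-fold higher in RhoH + 4-OHT than in GFP + 4-OHT (adjusted p = 0.0156, up to 0.0785 without RhoH + 4-OHT replicate 3 or any 1 GFP array). It was 2.86-fold higher in RhoH no 4-OHT than in GFP + 4-OHT (adjusted p = 9.45e-05). The lipoprotein receptor gene VLDLR was 1.79-fold higher in RhoH + 4-OHT (adjusted p = 0.00418) and 2.44-fold higher in RhoH no 4-OHT than in GFP + 4-OHT (adjusted p = 7.21e-05), in each alternative. EIF2AK2, the RNA-activated eIF2 kinase PKR, was 1.61-fold lower in RhoH no 4-OHT than in GFP + 4-OHT (adjusted p = 0.00104). EIF2AK4, which encodes GCN2, was at 0.01, -0.12 and -0.12 in the 3 comparisons and did not pass.

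For amino acid synthesis and transport (7 of 19 measured), 0 genes were called with 4-OHT in RhoH cells by limma (before adjustment, at p under 0.05, 0 higher and 2 lower), 3 were higher in RhoH + 4-OHT and 4 higher in RhoH no 4-OHT than in GFP + 4-OHT. PHGDH, the first enzyme of serine synthesis, averaged 8.66 ± 0.36 in RhoH + 4-OHT, 8.81 ± 0.10 in RhoH no 4-OHT and 7.59 ± 0.05 in GFP + 4-OHT (log2, SD, n = 3 each). Against GFP + 4-OHT it was 2.09-fold higher in RhoH + 4-OHT (limma adjusted p = 0.00393) and 2.33-fold higher in RhoH no 4-OHT (adjusted p = 0.000463). PSAT1, the next enzyme of that route, averaged 10.31 ± 0.32, 10.65 ± 0.24 and 9.29 ± 0.08 in the same groups. It was 2.03-fold higher in RhoH + 4-OHT (adjusted p = 0.00712) and 2.57-fold higher in RhoH no 4-OHT (adjusted p = 0.000338) than in GFP + 4-OHT. The calls of PHGDH and PSAT1 held in each alternative, and PSPH, the last enzyme of the route, was at 0.13 and 0.04 and did not pass (adjusted p = 0.646 and 0.885). SHMT2, which turns serine into glycine in mitochondria, was 1.27-fold higher in RhoH + 4-OHT than in GFP + 4-OHT (adjusted p = 0.0412, lost in 12 of 19 alternatives, up to 0.174) and 1.44-fold higher in RhoH no 4-OHT (adjusted p = 0.00142). CTH, which makes cysteine, was 1.97-fold higher in RhoH no 4-OHT than in GFP + 4-OHT (adjusted p = 0.00222).

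Cytosolic tRNA synthetases, which charge tRNAs with amino acids, were all measured (12 of 12). With 4-OHT in RhoH cells 0 were called higher and 1 lower, LARS1 for leucine, which fell by 0.53 on the log2 scale (limma adjusted p = 0.0295, lost in 10 of 19 alternatives, up to 0.140). Before adjustment, at p under 0.05, limma had 0 higher and 5 lower there. All 12 fold changes were negative, as were those of 7547 of all 14778 genes. In RhoH + 4-OHT against GFP + 4-OHT 0 were called by limma (before adjustment, at p under 0.05, 2 higher and 0 lower). In RhoH no 4-OHT against GFP + 4-OHT 4 were higher, LARS1 by 1.79-fold (adjusted p = 0.000673), GARS1 by 1.39-fold (adjusted p = 0.00617), EPRS1 by 1.34-fold (adjusted p = 0.0111, 0.0646 with median-centred arrays and 0.0522 without GFP + 4-OHT replicate 2) and IARS1 by 1.33-fold (adjusted p = 0.0218, lost in 7 of 19 alternatives, up to 0.105). The list's median log2 fold changes were -0.14, 0.03 and 0.14 in the 3 comparisons.

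In arginine metabolism (6 of 10 measured) 1 gene was called in any comparison, ODC1, the enzyme that turns ornithine into putrescine. Its log2 signals were 12.87, 12.90 and 12.98 in RhoH + 4-OHT, 11.92, 11.94 and 11.88 in RhoH no 4-OHT and 13.19, 13.17 and 13.18 in GFP + 4-OHT. RhoH no 4-OHT stood far below the other groups. ODC1 rose 2.01-fold with 4-OHT in RhoH cells (limma adjusted p = 7.28e-05) and was 2.41-fold lower in RhoH no 4-OHT than in GFP + 4-OHT (adjusted p = 3.4e-06), in each alternative. Against GFP + 4-OHT, RhoH + 4-OHT was at -0.26 (adjusted p = 0.0840), and limma called 0 genes of the list there (before adjustment, at p under 0.05, 2 higher and 1 lower). ODC1 did pass there with quantile normalization again (-0.43, limma adjusted p = 0.00386), with array weights (-0.28, adjusted p = 0.0235) and with a trend (adjusted p = 0.00149). The order of its groups was that of CRELD2 and the reverse of that of ASS1.

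Of the 9 genes, 4 spanned at least 1 log2 unit over the arrays, and for these the most alike of the other 14777 genes were sought. Likeness was the root mean square difference of log2 signals over the 9 arrays after each gene was centred on its own mean. ASNS was most like PSAT1 (0.13) and ATF5 (0.14), both of the lists above, and then MANF (0.151), against an SD of 0.676 for ASNS itself. The serine synthesis gene PSAT1 had group means of 10.31, 10.65 and 9.29 in RhoH + 4-OHT, RhoH no 4-OHT and GFP + 4-OHT. MANF was most like JMJD8 (0.0864), SLC75A1 (0.116) and ZNF704 (0.118), and ASNS ranked at 23. ASS1 was most like CTSG, the gene of the granule protease cathepsin G (0.0960), and then CCND2 (0.203) and GAL (0.216), against an SD of 1.08 for ASS1. CTSG is also one of the granulocyte precursor markers given above, with group means of 11.08, 11.91 and 9.44 in the same order. CRELD2 was most like WSB2 (0.114), ANO8 (0.141) and CLIP1 (0.15), and its nearest among the 9, DDIT3, ranked at 1275. The arrays share 3 groups, so the 9 points behind each likeness are not independent.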

How the data were processed

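Total RNA of 9 samples, 3 a group by their titles, was labelled with the GeneChip WT kit. The deposited table holds the authors' log2 values of 43550 probe sets. The submitters' processing notes name RMA, Affymetrix Power Tools and limma without a version, and no genome build. RMA compresses low signals, which understates their fold changes. The files hold no counts, and the number of arrays limits the precision.

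Probe sets were named through the platform annotation (1 symbol for 15659, several for 0, none for 27891), with symbols updated by Entrez identifier through RefSeq GRCh38.p14 (15659 matched). Of several probe sets of a gene the brightest on average was used, leaving 14778 genes. A linear model of 3 group means over all 9 arrays was fitted with limma 3.58.1 (R 4.3.3; 6 residual and 3.86 prior degrees of freedom), with Benjamini-Hochberg adjustment within a comparison, and tested on simulated data. All p-values are from limma. They measure the spread between samples that the series calls biological replicates, and the labels do not say whether their cultures were separate. No batch or date is labelled. Genes and lists were chosen with earlier results of these data known. The genes named are the 10 listed genes, list genes called in any comparison, genes needed for a role, and the 3 most alike genes of each listed gene that spans 1 log2 unit. Alternatives were other normalizations, filters, probe set rules, fits with array weights, a trend, a replicate block or only 6 arrays, and leaving out arrays.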

Additional observations from a re-analysis of the deposited data

How the results depend on the processing

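Of 513 recomputed fold changes of the 9 genes 33 changed their side of the threshold. A reversal was counted only where the sign changed and either fit was called, and there were 0. Differences that were not called did change sign, such as XBP1 with 4-OHT in RhoH cells (-0.04, and up to 0.03 in an alternative). In RhoH + 4-OHT against RhoH no 4-OHT the 5 called genes became 3 with median-centred arrays, 3 with all 43550 probe sets tested, 2 with only the 6 arrays compared and 3 without both replicate 1 RhoH arrays, and 3 to 5 when each array was left out in turn. The 5 pathway list genes called there became 3, 2, 2 and 3 under the same settings, 8 with quantile normalization again, 8 with array weights and 2 to 6 with an array left out. Calls over all genes moved too, with 558 in the fit used, 347, 314, 190 and 557 under those 4 settings, 953 with quantile normalization again and 950 with array weights. For RhoH + 4-OHT against GFP + 4-OHT the 5 called genes became 3 to 5 with an array left out, lowest without GFP + 4-OHT replicate 1 or 3, and the 6 list genes became 10 with array weights, 11 without both replicate 1 arrays and 3 to 6 with an array left out, where all genes had 664 calls, 1176 with array weights and 990 without both replicate 1 arrays. In RhoH no 4-OHT against GFP + 4-OHT the called genes stayed at 6 whichever array was left out, and the 18 list genes became 28 with array weights and 14 to 21 with an array left out, where all genes had 2258 calls and 4326 with array weights. The causes of these shifts were not tested. Titles number the replicates 1 to 3 in each group, and pairing was taken to need a correlation of deviations over 0.1 in every pair, which was not met. These were 0.54, 0.37 and 0.07 between the RhoH groups, 0.10, 0.15 and 0.01 between RhoH + 4-OHT and GFP + 4-OHT and 0.13, 0.15 and -0.03 between RhoH no 4-OHT and GFP + 4-OHT. As a hint from the data, 3, 5 and 4 of 6 arrays correlated best with their own number in the same order. With the replicate number as a block the called genes were 5, 5 and 6, as without it, and the list genes 6, 6 and 18. Over all genes median-centring called 318 higher and 29 lower in RhoH + 4-OHT against RhoH no 4-OHT, and quantile normalization again 588 and 365, against 447 and 111 in the fit used, and the largest shift of the median of all genes with a scaling was -0.04 on the log2 scale. The dimmest of the 9, DDIT3, had a log2 signal of 5.95 to 6.80.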
